A study of Mus musculus with 10 samples.

Results

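Goblet cells of the colon make and release the mucus gel, and besides mucins they carry a set of lineage factors and small secreted proteins. The 9 goblet cell factors described here are the genes Atoh1, Spdef, Agr2, Tff3, Fcgbp, Clca1, Zg16, Spink4 and Retnlb, taken by name from a table of 16875 gene names, in which all 9 were found. They divide into 2 lineage factors (Atoh1 and Spdef), 1 protein of the endoplasmic reticulum (Agr2) and 6 secreted products. RNA had been sequenced from 10 macrodissected mouse colon tumors induced with the carcinogen azoxymethane and the irritant dextran sulfate sodium (AOM/DSS), and levels are given as FPKM, a count of fragments scaled to transcript length and to library size, so that genes can be compared per length. The 5 control tumors, titled Wls WT, expressed Wls, and the 5 Villin-WlscKO tumors carried Villin-Cre ERT2 and Wls flox/flox. The study's control organoids came from Wls flox/flox mice without Cre. The titles do not say whether the control tumors carried the floxed allele or Cre. Villin drives Cre in intestinal epithelium, and 5 injections of tamoxifen at 80 mg/kg, begun 30 days before collection, deleted Wls, which is needed for Wnt secretion, in tumors that were already established. In the study's design control tumors, unless noted otherwise, came from mice without tamoxifen, and macrodissected tumors hold stroma as well as epithelium. The comparison asks how the goblet cell programme stood once epithelial Wnt secretion had been blocked.

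In the intestinal crypt, Notch signaling holds Atoh1 off in absorptive progenitors, and cells that keep Atoh1, a basic helix-loop-helix factor, enter the secretory lineages. Spdef, an ETS factor downstream of Atoh1, drives goblet cell maturation, and mature goblet cells load their granules with mucin together with trefoil, lectin-like and other small proteins. Wnt signaling maintains the proliferating crypt base from which these cells arise.

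The promoters of the lineage factors Atoh1 and Spdef and of the mucin-folding gene Agr2 are shown because the levels of each did not overlap between the groups. RefSeq windows on GRCm38.p6, from 250 bases before the transcription start to 50 after it, were at hand for 4 members (these and Fcgbp). Each window is written 5′ to 3′ on the strand of its gene, with a match to a searched motif in capitals: chr6:64728875-64729174 on the plus strand for Atoh1, chr17:27728902-27729201 on the minus strand for Spdef and chr12:35992675-35992974 on the plus strand for Agr2.
Atoh1: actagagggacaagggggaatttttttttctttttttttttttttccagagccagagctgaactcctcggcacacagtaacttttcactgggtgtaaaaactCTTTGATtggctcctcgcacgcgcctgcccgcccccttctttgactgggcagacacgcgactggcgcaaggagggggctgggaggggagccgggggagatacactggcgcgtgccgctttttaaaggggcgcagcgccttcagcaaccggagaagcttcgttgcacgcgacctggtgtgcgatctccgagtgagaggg
Spdef: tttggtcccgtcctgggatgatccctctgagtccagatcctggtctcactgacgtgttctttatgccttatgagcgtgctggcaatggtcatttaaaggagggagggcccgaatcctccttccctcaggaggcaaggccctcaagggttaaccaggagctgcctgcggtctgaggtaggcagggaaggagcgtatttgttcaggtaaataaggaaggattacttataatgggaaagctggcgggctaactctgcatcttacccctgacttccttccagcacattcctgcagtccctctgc
Agr2: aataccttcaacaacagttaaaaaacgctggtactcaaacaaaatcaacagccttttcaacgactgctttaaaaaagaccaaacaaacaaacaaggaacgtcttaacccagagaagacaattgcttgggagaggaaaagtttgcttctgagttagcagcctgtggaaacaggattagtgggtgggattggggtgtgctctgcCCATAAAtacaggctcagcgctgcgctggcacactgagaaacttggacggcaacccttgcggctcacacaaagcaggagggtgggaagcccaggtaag
Both strands were searched for 7 motifs. The Atoh1 window held CTTTGAT, the core that TCF/LEF factors bind, 148 bases before the start, as did 3.73% of all 32851 windows. The Agr2 window held TTTATNG, a Cdx-type motif, in reverse complement 48 bases before the start, where 10.9% of all windows hold it, and the Fcgbp window held the E-box CAGCTG 208 bases before the start, where the share is 16.3%. None of the 4 windows held CCGGAT, an ETS motif of the Spdef type that 6.04% of all windows hold. The forkhead motif TGTTTAC (3.65%) and the palindrome that STAT6 binds (6.95%) were not found in them either. Nor was the TATA box, searched as TATAAA and present in 13.6% of all windows. Matches to the Cdx-type and TATA box letters can overlap. A match describes letters in a window and not a bound site.

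Facts that bear on every value come first. Wls itself was 61.3 to 79.9 FPKM in control tumors and 2.03 to 11.7 in Villin-WlscKO tumors, in the direction of the labels. Eif2s3y, a Y-linked gene, was 30.4 to 46.6 FPKM in all 5 control tumors and at most 0.138 in Villin-WlscKO tumors, whereas Xist was at most 0.420 and 439 to 701, so that genotype, tamoxifen and sex cannot be told apart. The basal keratin Krt5 reached 469.5 and 669 FPKM in Villin-WlscKO tumors 2 and 3 and at most 0.315 in the other 8, and results that rest on this pair are given with and without it. The same pair held the most Wls of its group, 11.6 and 11.7 FPKM, against 2.81, 3.61 and 2.03 in Villin-WlscKO tumors 1, 4 and 5. In this pair, high Krt5 and remaining Wls cannot be told apart. The labels do not say how many mice gave the tumors, so p-values measure the spread between tumors. Sequencing depth is unknown.

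Of the 9 goblet cell factors, 4 rose in Villin-WlscKO tumors (Retnlb, Spink4, Agr2 and Spdef) and 0 fell at a Benjamini-Hochberg adjusted p under 0.05 in limma, fitted to log2(FPKM + 1) of the 16757 names whose mean FPKM was 0.5 or more. Of all genes tested, 6.12% (1026) passed as higher and 4.75% (796) as lower, and this split was 1373 to 410 after rescaling each tumor to a common FPKM sum and 499 to 1508 after scaling to epithelial genes, while the count of members stayed at 4 in both. At an unadjusted p under 0.05 in limma, 7 members were higher and 0 lower. The share of all genes at that unadjusted threshold was not counted, so this count and the unadjusted counts of the lists below have no background beside them. The change was positive for 8 of the 9 members, against 51.4% of all genes, and its median was 1.29 on the log2 scale, against 0.0073. In 5 members every Villin-WlscKO tumor lay above every control tumor, which was so for 5.33% of genes tested. Without Villin-WlscKO tumors 2 and 3, 1 member passed (Agr2, change 2.12, limma Benjamini-Hochberg adjusted p = 0.0406) and genes past the threshold fell from 1822 to 1101. In that fit, which had fewer tumors, 3.95% of all genes passed as higher. All 9 members had a positive change there, with a median of 1.79. In bulk tumors, more goblet cells and more RNA per goblet cell cannot be told apart.

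**Figure D1:**
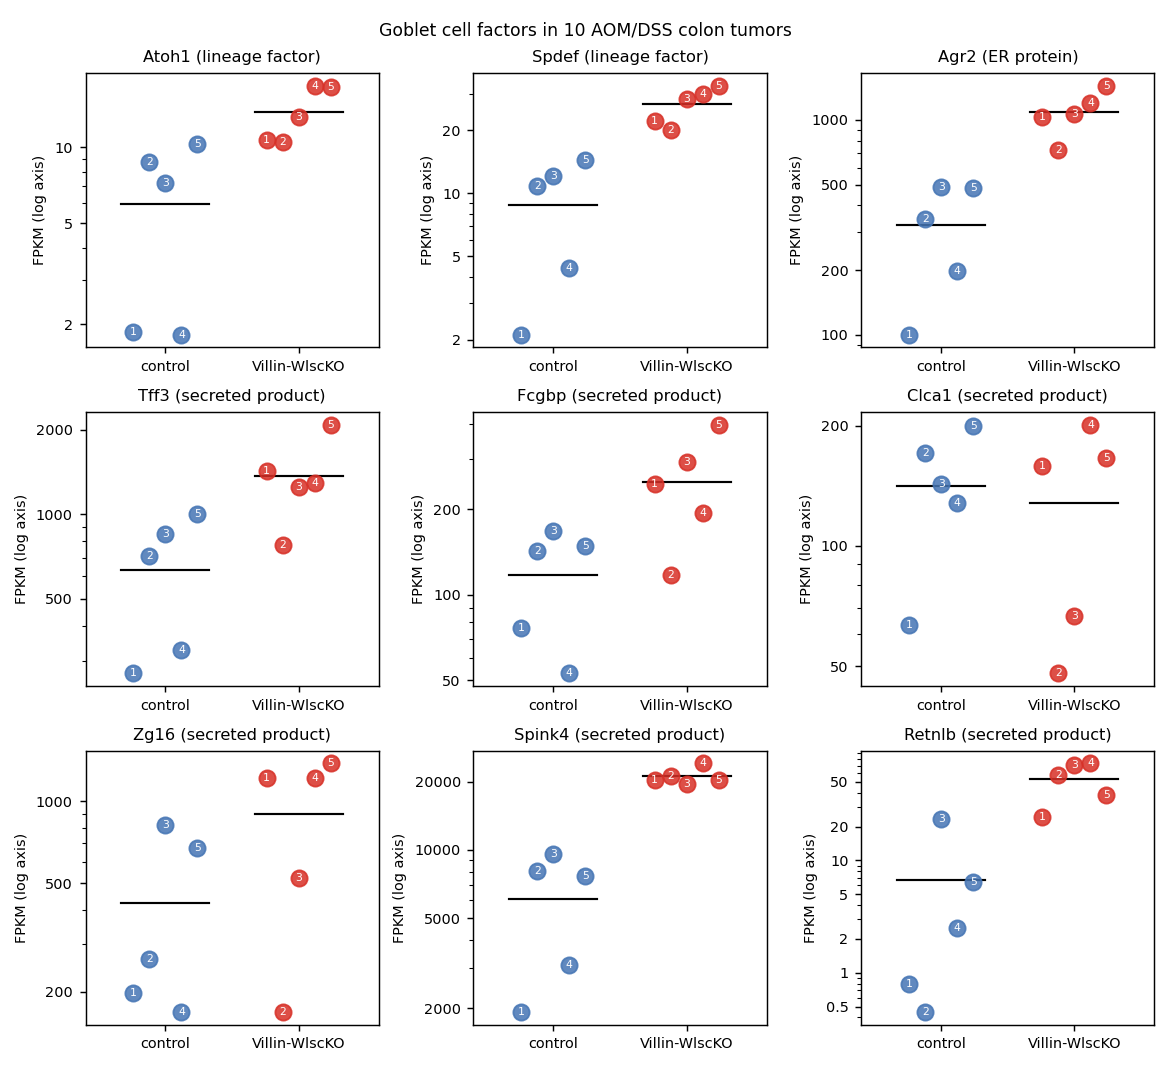
FPKM of the 9 goblet cell factors on log axes in control (blue) and Villin-WlscKO (red) tumors, with the tumor number in each point and the group mean as a line. The groups are apart for Atoh1, Spdef, Agr2, Spink4 and Retnlb, while Clca1 covers 63.2 to 199.6 in control and 47.9 to 201 in Villin-WlscKO tumors.

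Atoh1, the switch into the secretory lineages (chromosome 6, 64729125-64731245, plus strand, GRCm38), was 1.87, 8.71, 7.19, 1.82 and 10.3 FPKM in control tumors 1 to 5 and 10.6, 10.5, 13.1, 17.5 and 17.3 in Villin-WlscKO tumors 1 to 5. Control tumors 1 and 4 were far below the other controls, and the groups did not overlap, although control tumor 5 (10.3) and Villin-WlscKO tumor 2 (10.5) nearly met. Its mean went from 5.97 ± 3.92 (SD, n = 5) to 13.8 ± 3.42 FPKM, a change of 1.29 (SE 0.41) on the log2(FPKM + 1) scale that did not pass in limma (Benjamini-Hochberg adjusted p = 0.0730). The exact two-sided permutation test over the tumors gave p = 0.00794, the smallest that 5 against 5 allows. It passed in 1 of 23 alternative fits, without control tumor 5 (1.52, limma adjusted p = 0.0473), and ranged down to 1.02 without control tumor 4 (adjusted p = 0.140).

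Spdef, the ETS factor of goblet cell maturation (chromosome 17, 27714352-27728955, minus strand), was 2.11, 10.9, 12.1, 4.42 and 14.4 FPKM in control tumors and 22.1, 20.2, 28.3, 29.9 and 32.8 in Villin-WlscKO tumors. Control tumors 1 and 4 were again the low ones, and the groups were apart, with 14.4 as the highest control and 20.2 as the lowest Villin-WlscKO value. Spdef rose 3.03-fold in the mean, from 8.78 ± 5.26 to 26.6 ± 5.31 FPKM (SD, n = 5), with a log2 change of 1.71 (SE 0.41, limma Benjamini-Hochberg adjusted p = 0.0232). The call was lost without control tumor 4 (1.55, limma adjusted p = 0.0590), without Villin-WlscKO tumor 3 (1.68, adjusted p = 0.0543), without Villin-WlscKO tumor 5 (1.63, adjusted p = 0.0542) and without Villin-WlscKO tumors 2 and 3 (1.79, adjusted p = 0.0766).

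Agr2, a protein disulfide isomerase that mucin folding depends on (chromosome 12, 35992907-36004087, plus strand), was 100.3, 347, 489, 198 and 484 FPKM in control tumors and 1029, 722, 1066, 1195 and 1443 in Villin-WlscKO tumors. Every Villin-WlscKO tumor stood above every control, with the lowest, tumor 2, still above control tumor 3. Agr2 rose 3.37-fold, from 324 ± 173 to 1091 ± 262 FPKM (SD, n = 5), and its log2 change was 1.94 (SE 0.41, limma Benjamini-Hochberg adjusted p = 0.0142). It was the only member past the threshold in all 23 alternative fits, with changes of 1.57 to 2.14.

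Spink4, a small Kazal-type protease inhibitor released by goblet cells (chromosome 4, 40920052-40931395, plus strand), was the most abundant member by far. Its level was 1918, 8081, 9586, 3086 and 7644 FPKM in control tumors and 20290, 21080, 19568, 24052 and 20399 in Villin-WlscKO tumors. The control tumors spread 5.00-fold, whereas the Villin-WlscKO tumors lay within 1.23-fold of each other and above every control. Spink4 rose 3.48-fold, from 6063 ± 3355 to 21078 ± 1747 FPKM (SD, n = 5), and its log2 change was 2.04 (SE 0.42, limma Benjamini-Hochberg adjusted p = 0.0123). Among all names in the table, its mean ranked 17 in control and 4 in Villin-WlscKO tumors, and it alone made up 0.125% to 0.672% of the FPKM sum of a control tumor and 1.46% to 1.99% of that of a Villin-WlscKO tumor. The call was lost without Villin-WlscKO tumors 2 and 3 (2.07, limma adjusted p = 0.0567), with a similar change.

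Retnlb, which encodes the antibacterial resistin-like protein RELM beta (chromosome 16, 48816856-48818892, plus strand), had the largest change of the members from a low level. It was 0.786, 0.444, 23.5, 2.50 and 6.49 FPKM in control tumors and 24.2, 57.9, 71.0, 73.1 and 38.3 in Villin-WlscKO tumors. Control tumor 3 stood apart from the other controls and came close to Villin-WlscKO tumor 1, so that the groups were apart by a narrow margin. Retnlb rose from 6.73 ± 9.65 to 52.9 ± 21.2 FPKM (SD, n = 5), with a log2 change of 3.50 (SE 0.70, limma Benjamini-Hochberg adjusted p = 0.0110), which was 4.12 without control tumor 3. Without Villin-WlscKO tumors 2 and 3 the change was 3.25 and the call was lost (limma adjusted p = 0.0666).

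Tff3, the trefoil peptide of goblet cells that aids mucosal repair (chromosome 17, 31125306-31129646, minus strand), was 271, 711, 850, 327 and 998 FPKM in control tumors and 1425, 777, 1246, 1291 and 2085 in Villin-WlscKO tumors. Of the Villin-WlscKO tumors, 4 were above all controls and tumor 2 fell among them. The log2 change of 1.22 (SE 0.39) did not pass in limma (Benjamini-Hochberg adjusted p = 0.0746).

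Fcgbp, a large mucin-associated protein that is cross-linked into mucus (chromosome 7, 28071236-28120862, plus strand), was 76.1, 142, 168, 52.8 and 149 FPKM in control tumors and 245, 118, 294, 194 and 398 in Villin-WlscKO tumors. Here too 4 Villin-WlscKO tumors exceeded every control and tumor 2 did not. The log2 change was 1.10 (SE 0.38, limma Benjamini-Hochberg adjusted p = 0.0993), and it passed in 1 of 23 alternative fits, without Villin-WlscKO tumor 2 (1.34, adjusted p = 0.0447), with a lowest change of 0.84. All 10 values are identical to those of 9530053A07Rik, which starts at 28129466 beyond the end of Fcgbp on the same strand, so the level cannot be assigned to either gene.

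Zg16, a lectin-like granule protein that binds Gram-positive bacteria (chromosome 7, 127050156-127087328, minus strand, an interval that also holds the noncoding Gm44939 and Gm22747 on the plus strand), was 198, 263, 815, 168 and 671 FPKM in control tumors. It was 1217, 169, 524, 1219 and 1378 in Villin-WlscKO tumors, of which 3 stood above all controls while tumor 2 was at the level of the lowest control. The log2 change of 1.05 (SE 0.65) did not pass in limma (Benjamini-Hochberg adjusted p = 0.350), and it was 1.88 without Villin-WlscKO tumors 2 and 3 (adjusted p = 0.0733).

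Clca1, a secreted mucus metalloprotease once called Clca3 or gob-5 (chromosome 3, 145003817-145032776, minus strand), was the exception. It was 63.2, 171, 143, 128 and 199.6 FPKM in control tumors and 159, 47.9, 66.7, 201 and 166 in Villin-WlscKO tumors. The ranges coincided, and the lowest Villin-WlscKO values were in tumors 2 and 3, the pair with Krt5 and the highest Wls of that group. The log2 change was -0.24 (SE 0.44, limma Benjamini-Hochberg adjusted p = 0.787), it turned to 0.40 without that pair (adjusted p = 0.520), and it was 0.059 without tumor 2 alone.

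The relatives of the members by gene family gave a different picture for Clca. Of the 12 relatives in the table (Tff2 and Retn were not among its names), 5 rose and 0 fell, with Retnla and Retnlg sharing all their values and so counting as 1 measurement, although Agr3 passed as lower after quantile normalization. All 5 are Clca genes of the cluster on chromosome 3 that holds Clca1, between 144729677 and 145099443. Clca3b was 42.5, 39.7, 107, 44.8 and 81.3 FPKM in control tumors and 253, 157, 411, 270 and 248 in Villin-WlscKO tumors, with no overlap. Its log2 change was 2.12 (limma Benjamini-Hochberg adjusted p = 0.00237), and those of Clca3a2, Clca4b, Clca3a1 and Clca4a were 2.04, 1.69, 1.26 and 1.22 (adjusted p = 0.000449, 0.00621, 0.00153 and 0.0119). Villin-WlscKO tumor 3, one of the lowest for Clca1, was the highest of the 10 for Clca3a1, Clca3a2, Clca3b and Clca4b. Clca2 was 2.75 and 3.44 FPKM in Villin-WlscKO tumors 2 and 3 and at most 0.133 elsewhere. Clca3a1 with Clca3a2 and Clca3b, and Clca4a with Clca4b, are close paralogs between which the authors' quantification could divide reads, so their single levels are uncertain.

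**Figure D2:**
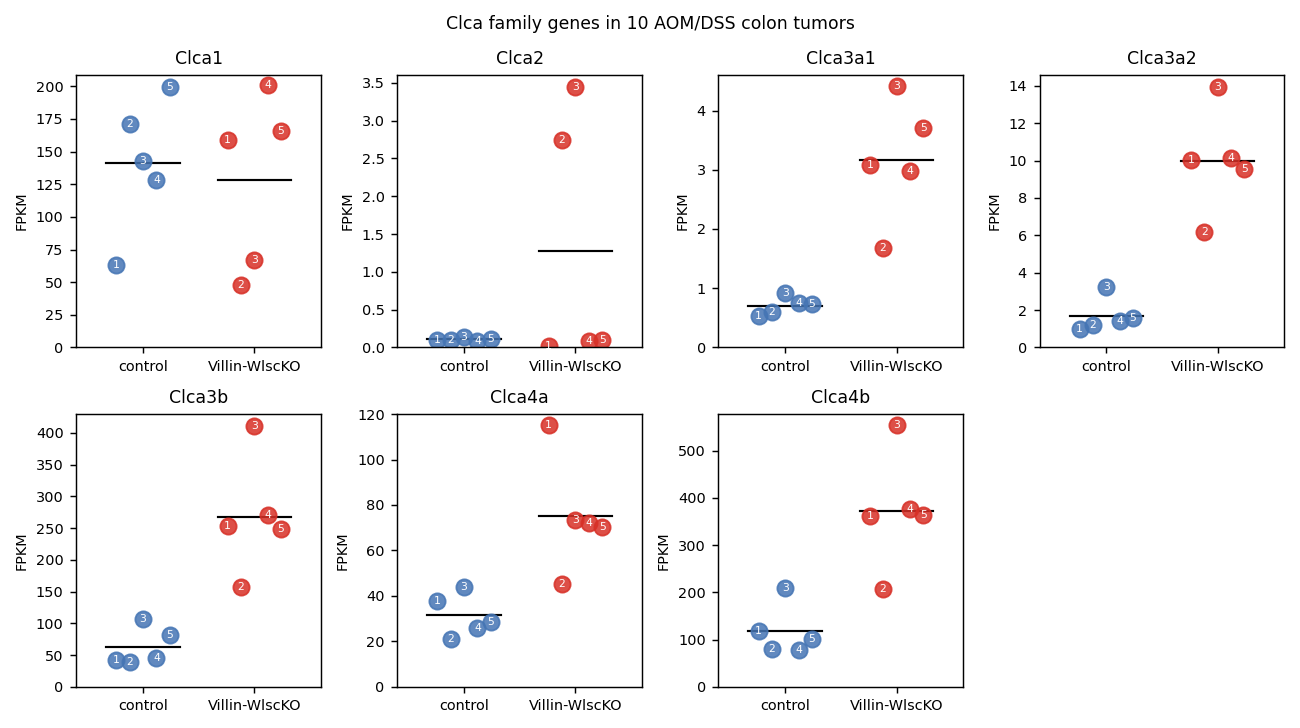
FPKM of Clca1 and the 6 other listed Clca genes by tumor number, in control (blue) and Villin-WlscKO (red) tumors, with group means as lines. Clca3b lies at 39.7 to 107 in control and 157 to 411 in Villin-WlscKO tumors, whereas the Clca1 groups cover the same range.

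Atoh1 was used as a reference within each tumor to ask whether the other members changed by as much as the lineage factor did. The log2 difference of Clca1 from Atoh1 was 4.48, 4.15, 4.14, 5.51 and 4.15 in control tumors and 3.78, 2.09, 2.26, 3.45 and 3.19 in Villin-WlscKO tumors. All 5 Villin-WlscKO tumors were below all controls, and the change of Clca1 relative to that of Atoh1 was -1.53 (exact permutation p = 0.00794, 0.0508 after Benjamini-Hochberg over 8 members). Atoh1 itself changed by 1.29 and the median of all genes by 0.0073, so a gene that did not change would also fall behind Atoh1. How many of all genes were apart from Atoh1 in this way was not counted, so the value does not single out Clca1. Retnlb changed by 2.21 more than Atoh1, Spink4 by 0.75, Agr2 by 0.65 and Spdef by 0.42, each with an exact permutation p between 0.0159 and 0.0317 and the same adjusted value of 0.0508. Tff3 differed from the change of Atoh1 by -0.068, Fcgbp by -0.19 and Zg16 by -0.24, with unadjusted exact permutation p between 0.532 and 0.746, which does not show that they moved alike. With a pseudocount of 0.1 these differences were -0.28, -0.40 and -0.45, and after quantile normalization -0.30, -0.30 and -0.40. After adjustment 0 of the 8 differences passed, while 5 had an unadjusted exact permutation p under 0.05. The adjusted values of these 5 moved with the setting: the exact permutation p after adjustment was 0.0317 to 0.0381 when each tumor was rescaled to a common FPKM sum, but 0.0635 to 0.203 with a pseudocount of 0.1 and 0.0635 to 0.165 after quantile normalization. The lead of Agr2 over Atoh1 was 0.44 with that pseudocount and 0.46 after quantile normalization.

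**Figure D3:**
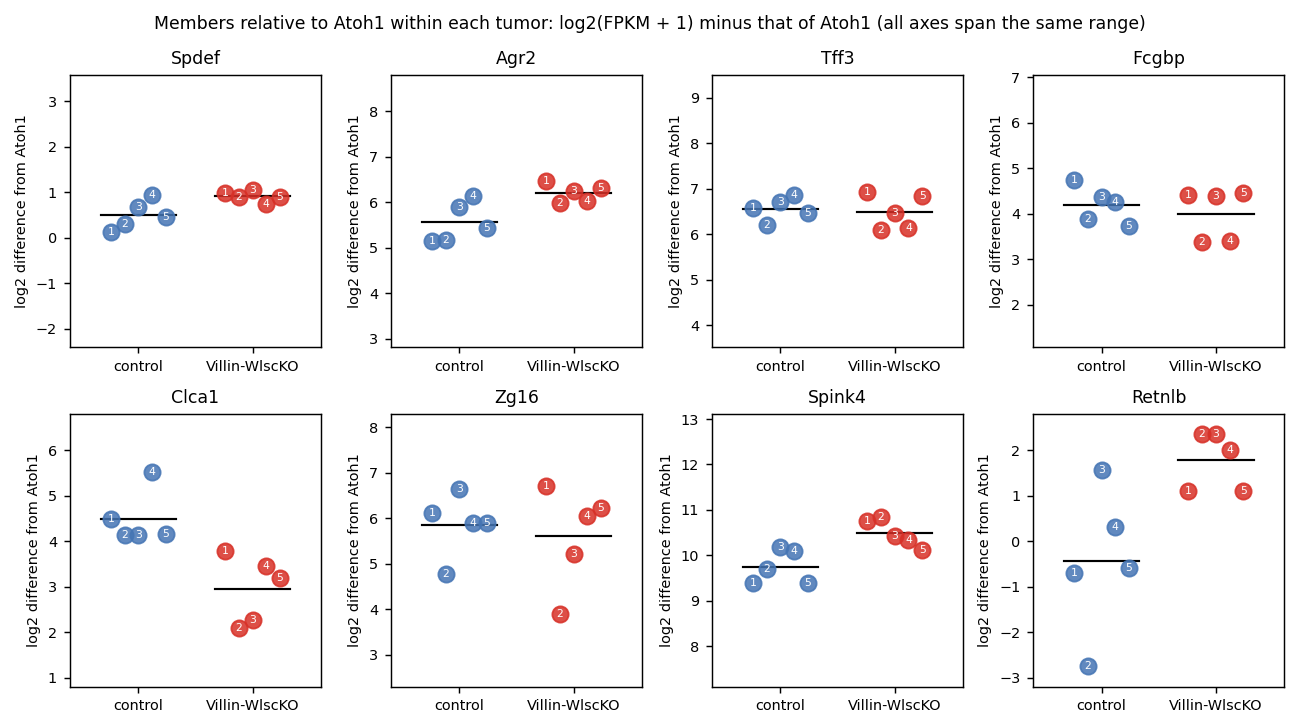
Difference between log2(FPKM + 1) of each other member and that of Atoh1 in the same tumor, by tumor number, in control (blue) and Villin-WlscKO (red) tumors, with group means as lines and a common span on all axes. Clca1 lies lower in every Villin-WlscKO tumor (2.09 to 3.78) than in any control (4.14 to 5.51), and Tff3 covers 6.20 to 6.86 in control and 6.08 to 6.94 in Villin-WlscKO tumors.

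Tumors differed as a whole in these factors. Control tumor 1 was among the 2 lowest controls for 9 of 9 members and control tumor 4 for 8, while control tumor 3 was the highest for 5 and control tumor 5 for 4. Within the Villin-WlscKO group, tumor 2 was the lowest for 7 members, and tumors 4 and 5 were the highest for 4 and 5. The 9 members summed to 0.172% to 0.848% of the FPKM of a control tumor and 1.71% to 2.34% of that of a Villin-WlscKO tumor. As a description over the deviations of 10 tumors from their group means, which share libraries and scaling, Pearson's r was 0.978 for Spdef with Agr2, 0.945 for Agr2 with Tff3, 0.944 for Atoh1 with Spdef and 0.802 for Clca1 with Zg16. The control tumors weigh more in many of these values. The SD of log2(FPKM + 1) was 0.98 in control and 0.33 in Villin-WlscKO tumors for Atoh1, and 0.98 and 0.29 for Spdef. Only Clca1 (0.63 and 0.91) and Zg16 (1.04 and 1.28) varied more in Villin-WlscKO tumors. By Pearson's r, Retnlb went least with the rest, at 0.080 with Clca1 and 0.247 with Fcgbp.

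By the same measure, the genes most like Atoh1 of those averaging 5 FPKM or more were Ern2, the goblet cell form of the stress sensor IRE1 (r = 0.978), Best2, a goblet cell anion channel (0.960), Tpsg1 (0.957), Gm23119 (0.953) and Aldh1b1 (0.951). Those most like Spdef were Hpd (0.986), Scin (0.973), Tmem63a (0.966), Slc12a8 (0.960) and Hepacam2 (0.956). The mean of the 6 secreted products went most closely with Klk1b22 (0.986, values identical to Klk1 and Klk1b24), Muc2, the main gel-forming mucin (0.983), Hsd11b2 and Rep15 (both 0.969) and Creb3l1 (0.963). Deviations from group means leave out the difference between the groups. Of the genes in these lists only Aldh1b1, Slc12a8 and Muc2 passed as higher in limma. Best2 (log2 change 0.21, limma adjusted p = 0.871) and Hsd11b2 (0.069, adjusted p = 0.959) were among those that did not.

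Other genes of the goblet programme were read from lists. Upstream, 0 of 7 Notch pathway genes passed in limma (1 was higher and 1 lower at an unadjusted p under 0.05, median change -0.0013), and Hes5 was not among the names. In other fits, 1 of them passed as lower after scaling to epithelial genes, and 1 passed without control tumor 5. Of 8 other regulators of the goblet lineage, 2 rose: Gfi1, a repressor that favours goblet over endocrine fate (1.05, limma Benjamini-Hochberg adjusted p = 0.00673), and Xbp1, which expands the secretory apparatus (0.61, adjusted p = 0.00764). The forkhead factor Foxa2 fell, from 22.5 to 33.3 FPKM in control tumors to 13.4 to 21.8 in Villin-WlscKO tumors (-0.73, adjusted p = 0.0118). The call on Foxa2 was lost without Villin-WlscKO tumors 2 and 3, and that on Xbp1 after scaling to epithelial genes.

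Of 11 genes of the secretory apparatus, all 11 had a positive change and 4 passed as higher, namely Slc12a8 (1.46, limma Benjamini-Hochberg adjusted p = 0.0430), the mucin glycosyltransferase Galnt12 (0.71, 0.0117), the granule exocytosis gene Sytl2 (0.65, 0.0313) and Ttc39a (0.65, 0.0287). Of these, Galnt12 passed in all 23 alternative fits, whereas Slc12a8 lost the call in 12, Ttc39a in 8 and Sytl2 in 7. Of 6 other secreted products, 3 rose: Ang4, an antimicrobial ribonuclease (3.29, adjusted p = 0.000234), Muc2 (adjusted p = 0.00470) and Reg4 (1.83, adjusted p = 0.00341). Muc2 averaged 109 FPKM in control and 441 in Villin-WlscKO tumors and ranged over 51.0 to 169 FPKM in control tumors and 248 to 549 in Villin-WlscKO tumors. Of the genes of type 2 cytokine signaling, which acts on Retnlb and Clca1 in mucosal tissue, 4 were in the table (Il4, Il5, Il13, Il25 and Tslp were not) and 2 rose, the receptor chains Il4ra (0.77, adjusted p = 0.0493) and Il13ra1 (0.75, 0.00299). Il13ra1 passed in all 23 alternative fits and Il4ra failed in 14 of them, the replicate block among them. The cytokine Il33 (0.98, limma adjusted p = 0.128) and Stat6 (0.025, adjusted p = 0.885) did not pass.

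**Figure D4:**
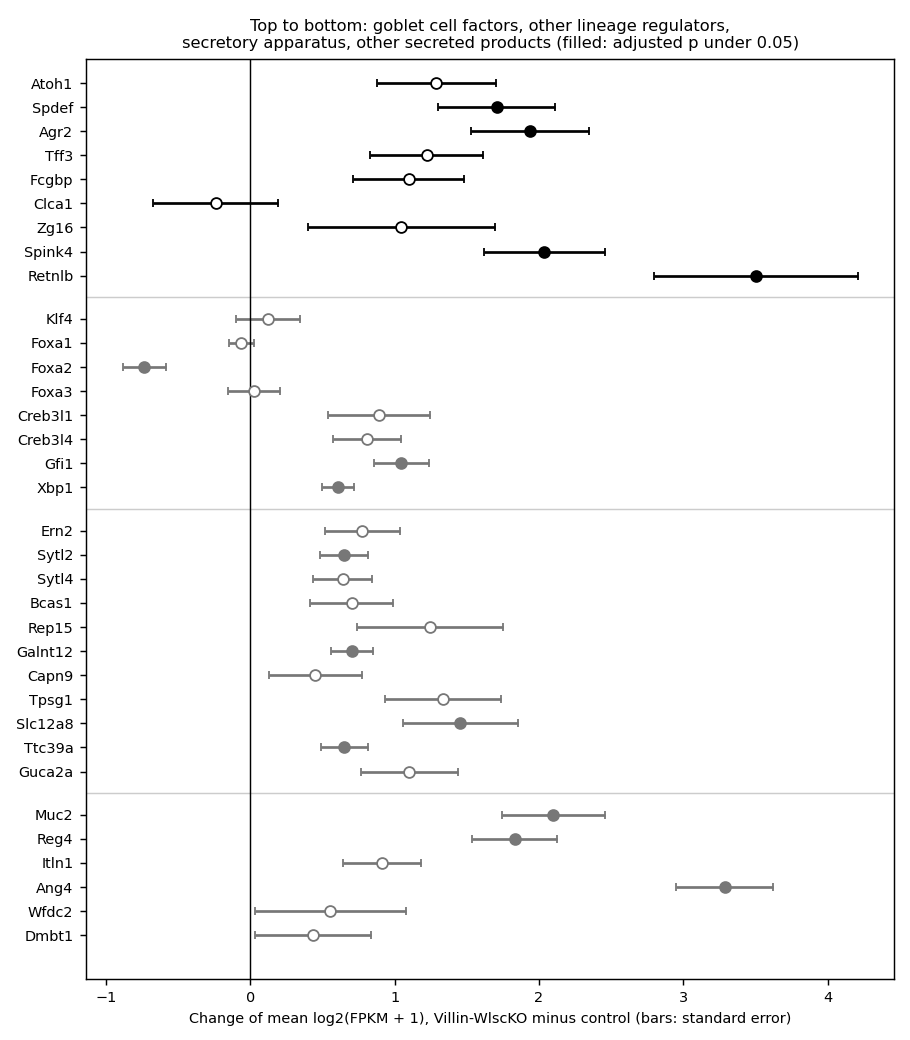
Change of mean log2(FPKM + 1) from control to Villin-WlscKO tumors with its limma standard error, for the 9 goblet cell factors (black) and the listed lineage regulators, secretory apparatus genes and other secreted products (grey), filled where the Benjamini-Hochberg adjusted p was under 0.05. Retnlb (3.50) and Ang4 (3.29) lie farthest to the right, and Clca1 (-0.24) and Foxa2 (-0.73) lie left of 0.

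Markers of other cells moved with some of these values. Of 10 pan-epithelial markers 0 passed in limma (4 were higher and 1 lower at an unadjusted p under 0.05, median change 0.18), and Epcam was 923 to 1043 FPKM in control and 911 to 1321 in Villin-WlscKO tumors, so the tissue carried epithelium in every tumor. Among 4 Paneth cell markers, Lyz1 (1.66) and Mmp7 (1.17) rose in limma, and 4 were higher and 0 lower at an unadjusted p under 0.05. Their summed levels were 1412 to 2385 FPKM in control and 3727 to 5965 in Villin-WlscKO tumors. Which cells made Ang4, listed above as a goblet cell product, was not tested. Of 6 T cell markers 4 rose, with sums of 4.04 to 9.16 and 9.38 to 20.9 FPKM, but of the 5 tested without Villin-WlscKO tumors 2 and 3, 0 passed. Of 5 stratified squamous markers 0 passed in limma, and 0 had an unadjusted p under 0.05, with sums of 26.8 to 180.1 FPKM in control and 10.6 to 1241 in Villin-WlscKO tumors, where Krt5 was listed at 0 in control tumor 2 and Trp63 in control tumors 1 and 4 and Villin-WlscKO tumor 5. Of the other differentiated lineages, 2 of 10 colonocyte markers rose and 0 fell in limma (Krt20 and Guca2b; 2 were higher and 3 lower at an unadjusted p under 0.05), 1 of 7 enteroendocrine markers fell (Cck, -1.01, limma adjusted p = 0.00623), and 0 of 5 tuft cell markers passed (1 was higher and 1 lower at an unadjusted p under 0.05). The colonocyte split was 1 higher and 3 lower after scaling to epithelial genes, where Guca2b no longer passed, as it also did not without Villin-WlscKO tumors 2 and 3. The part of these cells in the values of the goblet cell factors was not tested. Among the pan-epithelial, Paneth and squamous markers, Krt19 shared all 10 values with Krt13 and Krt17, Defa24 with Defa-ps1, and Krt6a with Krt4. Their levels cannot be assigned to a single gene.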

How the data were processed

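Total RNA from 5 control and 5 Villin-WlscKO colon tumors had been made into stranded mRNA libraries. Mice had received AOM at 12.5 mg/kg and 3 cycles of 2% DSS, and tumors were collected 120 days after AOM. According to the submitters' processing notes, which name FastQC, TopHat2 2.1.1, Cufflinks 2.2.1, Cuffdiff and GRCm38.p5, the authors deposited 1 FPKM value per gene name and tumor. The annotation release and any use of strand in quantification are not given in the sources used here. FPKM sums ran from 1207680 to 1533880, and among 1050 low genes at most 4 shared a ratio between control tumors 1 and 2, so no read number was recovered.

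All 10 columns were assigned by name and 0 were left over. limma 3.58.1 in R 4.3.3 was run on log2(FPKM + 1) with a variance trend, no covariate and the 16757 names with a mean FPKM of 0.5 or more. Fold changes on this scale understate those of low genes. The fit was tested on simulated data of 16757 genes: of 200 changed genes 194 were recovered and 10 unchanged ones were called. These counts hold for the simulated data only, and recovery in the tumors themselves was not tested. Exact permutation tests over 252 arrangements and figures used scipy 1.17.1, matplotlib 3.10.9, pandas 2.3.3 and numpy 2.4.6 in Python 3.11.15. Gene positions are from GENCODE M21 on GRCm38, and promoter windows from RefSeq on GRCm38.p6.

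The members, gene lists and motifs were chosen with earlier results of these data known. Named are all members, Wls, Xist, Eif2s3y and Krt5, and names that share a member's values. The 5 genes most like Atoh1, Spdef and the mean of the products are named too. The rule also allowed up to 4 genes past the threshold with the largest change in each list, and the first 2 markers of a list. Not all of these are named: the T cell genes past the threshold and several first markers were left out. Clca2 and the list genes shown beyond these were picked with their values in view. Equal replicate numbers were not taken as pairs in the main fit. Correlations of deviations between same-numbered tumors were 0.064, -0.087, 0.063, 0.10 and 0.16. Differently numbered tumors were not compared in this way, so these values do not settle whether the numbers pair tumors.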

Additional observations from a re-analysis of the deposited data

How the results depend on the processing

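The count of 4 goblet cell factors past the threshold held in all 12 other fits to the 10 tumors, among them a pseudocount of 0.1, 4 other scalings, no filter, a mean FPKM of 5 or more, tumor weights and the replicate block, which gave 4 members and 1627 genes against 1822. Leaving out 1 tumor in turn gave 3 to 5 members and 1229 to 1986 genes. Leaving out Villin-WlscKO tumors 2 and 3 together gave 1 member and 1101 genes, with fewer tumors in the fit. The same omission turned the change of Clca1 to 0.40 and, relative to Atoh1, those of Tff3 to 0.075 and Zg16 to 0.47. Rescaling to a common FPKM sum turned that of Tff3 to 0.019. Without 1 tumor, Clca1 ranged from -0.50 to 0.059, Tff3 relative to Atoh1 from -0.18 to 0.033 (0.0075 without control tumor 4, 0.022 without Villin-WlscKO tumor 4) and Zg16 relative to Atoh1 from -0.52 to 0.19. The cause was not tested. Scaling to epithelial genes moved the median change of all genes to -0.20, and all members but Clca1 kept a positive change there. With equal numbers taken as pairs, the exact sign-flip permutation test of the differences from Atoh1 cannot go below p = 0.0625 over 5 pairs, and its adjusted p were 0.167 to 0.875. With depth unknown, no counting error could be given.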

Other observations

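Beyond the epithelium, 1 of 5 macrophage markers rose (Cd14, log2 change 0.67, limma Benjamini-Hochberg adjusted p = 0.0357), a call that was lost in 11 of 23 alternative fits. In the same limma fit, 0 of 4 B and plasma cell, 0 of 5 neutrophil, 0 of 7 fibroblast, 0 of 5 smooth muscle and 0 of 5 proliferation markers passed, and at an unadjusted p under 0.05 the B and plasma cell list had 3 higher, the neutrophil list 4 higher and the others 0.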
